A study of Mus musculus with 6 samples.

Results

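Gene-end intervals are the accessible intervals of mouse neural progenitors that sit at the ends of genes, most of them promoters. They were chosen by a rule on position, set with earlier results of these data known. It took consensus ATAC-seq intervals on chromosomes 1 to 19 other than 6 and 11 whose midpoint lay within 1 kb of the start or finish of a RefSeq protein-coding gene. The rule took 10544 of the 52223 intervals, and 10522 of them passed the filter on low counts and were tested. The remaining 22 were filtered out for low counts.

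The question was how overexpression of the orphan nuclear receptor Nr6a1 changed open chromatin in these progenitors. The Nr6a1OE group was transduced on day 5 with a lentivirus carrying Nr6a1, a 2A sequence and the red fluorescent protein mScarlet3, and the mScarlet group with a lentivirus carrying mScarlet3 alone. Both groups were differentiated from embryonic stem cells with 5 µM CHIR99021, a GSK3 inhibitor that activates Wnt signalling, from day 2. They then received 100 nM retinoic acid with 10 nM SAG, a hedgehog pathway agonist, from day 3, and 10 nM SAG alone from day 5. On day 9 the fluorescent cells were sorted and 50000 cells entered each of the 6 libraries, 3 for each group. The sort kept transduced cells in both groups, and neither the vector's promoter nor the stem cell line is given in the sources used here.

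A promoter is the stretch around a gene's transcription start where RNA polymerase and general factors assemble, and in ATAC-seq it is open when Tn5 transposase can insert there. Promoters rich in CpG, common at housekeeping genes, tend to be open in most cell types, whereas tissue-specific promoters and distal enhancers vary more. Nr6a1, also called germ cell nuclear factor, binds the half-site AGGTCA and its extended form TCAAGGTCA, represses Pou5f1 and related genes when stem cells leave pluripotency, and is needed for trunk development in the mouse.

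The promoter sequences of 7 genes are shown here because their intervals span the kinds of promoter called below. Prmt6 and Sp1 closed, and Frzb, Pax7, Hmga1, Nxph2 and Wfikkn1 opened. Each sequence is RefSeq's, on GRCm38.p6, and runs from 250 bases before the gene's start to 50 after it, 5′ to 3′ on the gene's strand. Capitals mark matches, on either strand, to 8 motifs. For Nr6a1 these were TCAAGGTCA and, lying within it, the shorter half-site AGGTCA. The others were CCAAT, bound by the trimeric factor NF-Y, the octamer ATGCAAAT of POU factors, and TTGGCA, the half-site of nuclear factor I. The last were CCGGAAGT for ETS factors, TGACGTCA for CREB and, for E-box factors such as Usf1, CACGTG. A match on the other strand appears as its reverse complement.
Prmt6 (chr3:110250950-110251249, minus strand): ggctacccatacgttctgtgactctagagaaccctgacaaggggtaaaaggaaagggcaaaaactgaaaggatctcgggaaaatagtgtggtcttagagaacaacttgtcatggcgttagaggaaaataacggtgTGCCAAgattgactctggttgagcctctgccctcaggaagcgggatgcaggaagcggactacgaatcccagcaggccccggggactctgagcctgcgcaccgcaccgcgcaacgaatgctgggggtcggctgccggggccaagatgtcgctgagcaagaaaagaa
Sp1 (chr15:102406066-102406365, plus strand): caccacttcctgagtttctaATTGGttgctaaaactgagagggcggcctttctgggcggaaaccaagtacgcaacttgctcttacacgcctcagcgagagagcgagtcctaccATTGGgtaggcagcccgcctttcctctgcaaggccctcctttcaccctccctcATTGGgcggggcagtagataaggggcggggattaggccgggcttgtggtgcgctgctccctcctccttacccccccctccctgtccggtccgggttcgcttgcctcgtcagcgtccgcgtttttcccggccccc
Frzb (chr2:80447347-80447646, minus strand): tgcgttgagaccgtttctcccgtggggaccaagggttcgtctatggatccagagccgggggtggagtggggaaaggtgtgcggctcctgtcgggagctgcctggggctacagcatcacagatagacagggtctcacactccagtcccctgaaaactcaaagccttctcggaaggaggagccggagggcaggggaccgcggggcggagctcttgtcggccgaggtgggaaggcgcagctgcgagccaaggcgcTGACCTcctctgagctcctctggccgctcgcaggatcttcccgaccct
Pax7 (chr4:139832919-139833218, minus strand): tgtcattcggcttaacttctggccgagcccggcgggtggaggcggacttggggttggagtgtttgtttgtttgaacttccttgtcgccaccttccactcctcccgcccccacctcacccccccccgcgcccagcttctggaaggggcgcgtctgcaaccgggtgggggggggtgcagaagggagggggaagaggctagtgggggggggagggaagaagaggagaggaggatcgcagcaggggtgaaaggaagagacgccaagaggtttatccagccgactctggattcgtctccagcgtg
Hmga1 (chr17:27556324-27556623, plus strand): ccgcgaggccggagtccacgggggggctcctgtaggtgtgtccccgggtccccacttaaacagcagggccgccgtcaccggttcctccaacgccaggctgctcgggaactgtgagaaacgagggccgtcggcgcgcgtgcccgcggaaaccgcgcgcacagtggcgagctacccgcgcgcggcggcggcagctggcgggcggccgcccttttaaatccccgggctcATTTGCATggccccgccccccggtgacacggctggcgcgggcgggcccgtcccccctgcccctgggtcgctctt
Nxph2 (chr2:23320996-23321295, plus strand): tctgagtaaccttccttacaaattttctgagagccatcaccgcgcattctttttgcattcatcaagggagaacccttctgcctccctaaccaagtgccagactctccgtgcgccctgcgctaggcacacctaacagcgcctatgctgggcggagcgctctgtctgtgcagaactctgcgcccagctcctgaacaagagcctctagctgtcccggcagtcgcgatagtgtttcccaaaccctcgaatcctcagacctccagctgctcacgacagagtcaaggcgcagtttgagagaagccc
Wfikkn1 (chr17:25880809-25881108, minus strand): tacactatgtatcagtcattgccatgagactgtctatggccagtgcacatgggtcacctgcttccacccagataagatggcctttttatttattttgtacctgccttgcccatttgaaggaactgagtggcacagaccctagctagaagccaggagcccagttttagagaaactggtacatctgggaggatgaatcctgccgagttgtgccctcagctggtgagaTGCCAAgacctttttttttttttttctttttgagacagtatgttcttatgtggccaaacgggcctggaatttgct

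The windows of Pax7 and Nxph2 held none of the 8 motifs, Sp1 held CCAAT in 3 places, and Wfikkn1 stood apart in composition, with an observed over expected CpG ratio of 0.126. A match is a string of letters and not a bound site, and no match says only that these letters are not in this window.

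Gene-end intervals were strong and took close to the same share of every library. Fragments counted in intervals numbered 7035135, 7056536 and 7923767 in Nr6a1OE 1, 2 and 3 and 7347754, 6857763 and 8030029 in mScarlet 1, 2 and 3. Of these, gene-end intervals held 46.5%, 46.2% and 46.5% in Nr6a1OE 1, 2 and 3, and 46.9%, 46.5% and 46.5% in mScarlet 1, 2 and 3. The shares of the groups overlapped. Over gene-end intervals the Nr6a1OE libraries differed from one another by about counting noise, with a chi-square per degree of freedom of 0.984 to 1.00, against 1.04 to 1.13 among mScarlet libraries and 1.05 to 1.28 between groups. No label states that replicate libraries were separate cultures, and the p-values measure only how far these libraries spread, which may be technical.

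Most neural progenitor genes had an open gene end, as did most genes of the neuron, glia, neural crest and mesoderm lists. The part was smaller for endothelium and blood and for endoderm. The share over all protein-coding genes is not given here. A gene-end interval was listed at 18 of 21 neural progenitor genes on these chromosomes, 19 of 26 genes of post-mitotic neurons, 11 of 15 of glia, 10 of 12 of neural crest, 11 of 15 of mesoderm and mesenchyme, 6 of 12 of endothelium and blood and 4 of 11 of endoderm. Per kb of interval, their median levels were 38.2 CPM for neural progenitor genes, 17.1 for post-mitotic neurons, 15.1 for glia, 26.01 for neural crest, 14.02 for mesoderm, 9.46 for endothelium and blood and 14.8 for endoderm, against 31.0 CPM over all gene-end intervals. CPM is the count scaled to library size after TMM normalisation. Within the neural progenitor list, the mScarlet mean per kb of interval was 58.7 CPM at Sox1 and 34.3 at Sox2. It was 35.5 at the intermediate filament gene Nes, 69.2 at the Notch target Hes5 and 9.44 at Pax6. The last of these and Msi1, an RNA-binding protein gene with intervals at 14.6 and 5.77 CPM per kb, lay below the median of all gene ends, and Notch1 had no gene-end interval. None was listed at the pluripotency gene Pou5f1, the blood gene Ptprc, the endothelial gene Cdh5, the liver gene Afp or the muscle gene Myod1. Genes of other cell types that did have one included Foxc1 (29.4 CPM per kb) and Twist1 (26.4) of mesoderm, Kdr (26.4) of endothelium, Tal1 (21.1) of blood and Gata6 (19.11) of endoderm. In bulk libraries, fewer cells with an open site and a less open site in every cell cannot be told apart.

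Few gene ends changed between the groups, and most changes were small. Of 10522 gene-end intervals, 25 opened and 27 closed in Nr6a1OE, where opened and closed mean higher and lower than mScarlet with an edgeR quasi-likelihood adjusted p under 0.05. That is 0.494% of gene-end intervals, against 1.73% of all 51637 intervals tested and 2.09% of the other intervals of the same 17 chromosomes. By direction, the background over all intervals was 0.469% opened and 1.26% closed. Opened gene ends had a median log2 fold change of 0.32 (0.15 to 1.14), and closed gene ends one of -0.25 (-1.40 to -0.13). Of the 52, 36 changed by less than 0.35 on the log2 scale and 9 by more than 0.5.

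The whole distribution of gene ends was narrow. Their median log2 fold change was -0.01, against 0.00 over all intervals tested and 0.01 over the other intervals of the same chromosomes. The SD of the log2 fold change was 0.13 at gene ends, 0.26 over all intervals and 0.29 over the others. Only 6 gene-end intervals moved by more than 1 on the log2 scale, of 278 intervals in all. With an unadjusted p below 0.05, 397 gene-end intervals were higher and 502 lower in Nr6a1OE, which is 8.54% of them against 12.6% of all intervals. The libraries of the groups did not overlap at 634 gene-end intervals that were higher and 775 that were lower in Nr6a1OE, 13.4% together. Over all intervals the groups did not overlap at 16.6%, with 7.89% higher and 8.73% lower.

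**Figure D1:**
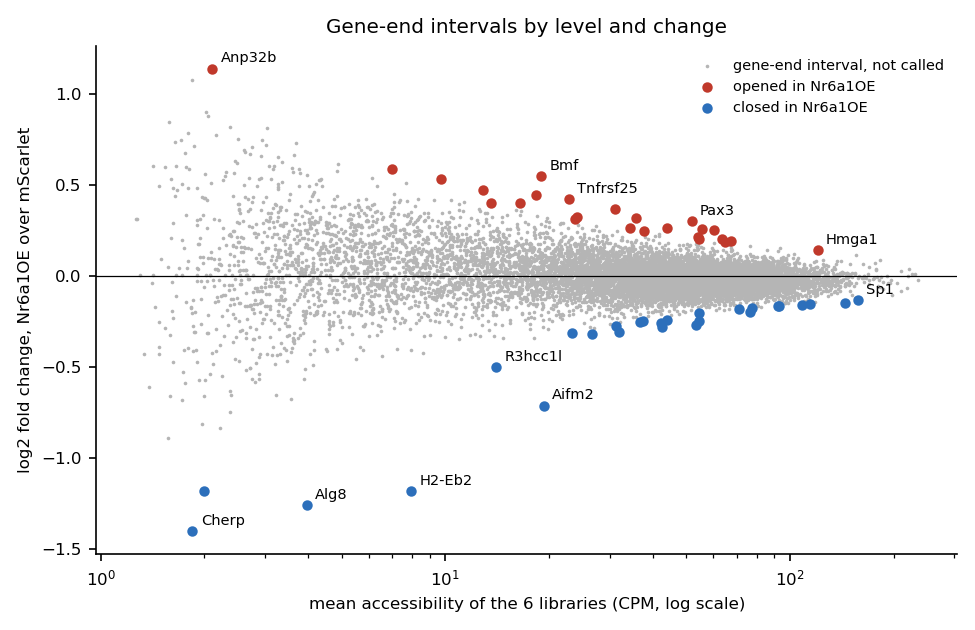
Each point is a gene-end interval, with its mean accessibility over the 6 libraries in CPM on a log axis and its log2 fold change, Nr6a1OE over mScarlet; the 25 opened intervals are red, the 27 closed ones blue and the uncalled ones grey. Called intervals sit nearer 0 as the level rises, and the 6 intervals that moved by more than 1, such as Alg8 and H2-Eb2, are weak.

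These counts rested on single libraries. Without mScarlet 1, 6 gene-end intervals opened and 7 closed, and 40 of the 52 calls were lost. Leaving out Nr6a1OE 1 gave 14 opened and 12 closed, Nr6a1OE 2 gave 17 and 13, Nr6a1OE 3 gave 15 and 15, and mScarlet 3 gave 14 and 11. Leaving out mScarlet 2 gave 19 opened and 35 closed, more closed than with all 6 libraries. With loess offsets, which remove a trend with level, the split was 31 opened and 18 closed. DESeq2 called 0 opened and 2 closed gene ends, where it called 0.191% of all intervals. The calls that held in all 6 fits without 1 library numbered 7, and they were the closed intervals at Alg8, H2-Eb2, Aifm2 and R3hcc1l with Loxl4, and the opened ones at Bmf, Pax3 and Tnfrsf25 with Espn.

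Gene ends are stronger than other intervals, with a median of 40.7 CPM against 5.32 CPM, so they were compared at matched level as well. Gene-end intervals were divided into 4 level groups of equal size at 19.8, 40.7 and 62.7 CPM. In the weakest group 0.532% of gene ends were called, against 1.91% of other intervals of that level. Between 19.8 and 40.7 CPM the shares were 0.494% at gene ends and 3.77% at other intervals, and between 40.7 and 62.7 CPM they were 0.456% and 2.88%. In the strongest group they were 0.494% at gene ends and 1.74% at other intervals. In all 4 groups the called share was lower at gene ends than at the other intervals, and the difference was not tested. The direction moved with level. The median log2 fold change of gene ends was 0.05 in the weakest group and -0.02 in the strongest, with 184 higher and 58 lower in Nr6a1OE with an unadjusted p below 0.05 in the weakest and 53 higher and 196 lower in the strongest. Whether level itself sets this was not tested.

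**Figure D2:**
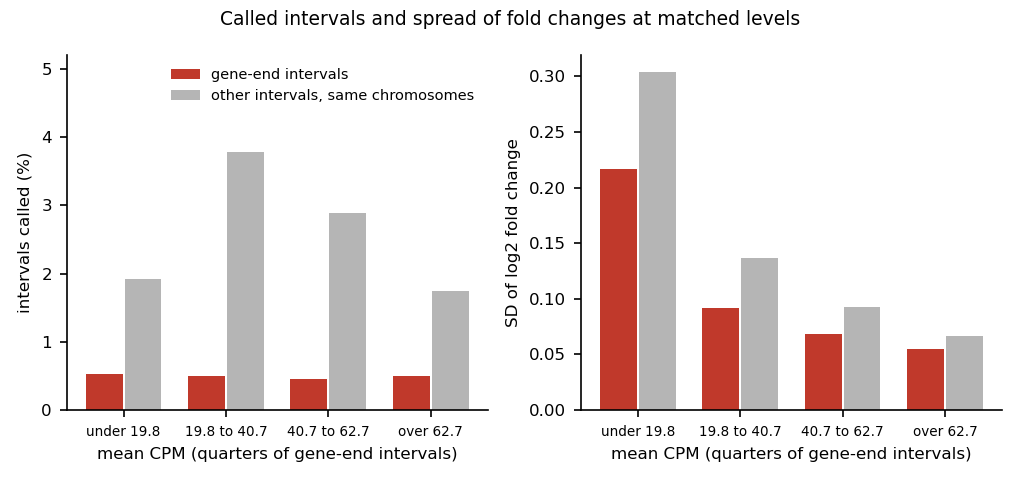
Left, the percentage of intervals called in either direction, and right, the SD of the log2 fold change (Nr6a1OE over mScarlet), for gene-end intervals (red) and the other intervals of the same chromosomes (grey) in 4 ranges of mean CPM. Both bars are lower for gene ends in every range, for example 0.494% against 3.77% called between 19.8 and 40.7 CPM.

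Promoters formed the largest class. The 6634 intervals that held a RefSeq promoter window had 13 opened and 16 closed members and a median log2 fold change of -0.01. The 983 at a gene's start without such a window had 2 opened and 4 closed, and the 2183 at genes whose strand is not in the promoter table had 7 and 3. The 722 on the finish side of a gene had 3 opened and 4 closed, a median log2 fold change of 0.04 and a wider SD of 0.24. They were also weaker, with a median of 6.38 CPM against 48.0 CPM at promoter windows. Intervals with the starts of 2 or more gene records within 1 kb of the midpoint, 764 in all, had 0 opened and 2 closed by the edgeR test. With an unadjusted p below 0.05, 11 were higher and 45 lower in Nr6a1OE. That is 0.262% called and 7.33% with such a p, against 0.494% and 8.54% of all gene ends. Their median level was high, at 61.4 CPM. All gene ends from 40.7 to 62.7 CPM had 52 higher and 148 lower at that p, and those above 62.7 CPM had 53 higher and 196 lower. DESeq2 called 0 opened gene ends of any class.

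Among called gene ends with at least 3 CPM in the higher group, the largest changes were at Alg8, H2-Eb2 and Aifm2. They lay at finishes or at a start outside promoter windows. Next in size were Vwa5a (0.59), whose side is not given, Bmf (0.55), at its finish, and Nxph2 (0.53), at its promoter window. Alg8 encodes a glucosyltransferase of the endoplasmic reticulum that builds the sugar chain for N-glycosylation. The interval at its finish (chr7:97391313-97392079) held 2.56, 2.40 and 2.02 CPM in Nr6a1OE 1, 2 and 3, against 5.07, 6.70 and 5.00 CPM in mScarlet 1, 2 and 3. All Nr6a1OE libraries were below all mScarlet libraries. On the log2 scale it changed by -1.26 ± 0.24 (SE; edgeR adjusted p = 4.5e-05).

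H2-Eb2 encodes an MHC class II beta chain, which presents peptides to T cells. The interval at its finish (chr17:34340636-34341266) held 5.68, 3.81 and 5.17 CPM in Nr6a1OE, against 12.9, 8.16 and 12.1 CPM in mScarlet. The groups did not overlap, and replicate 2 was the lowest library in each. This is -1.18 ± 0.16 (SE) in log2 units (edgeR adjusted p = 4.5e-10), and DESeq2 called it too (adjusted p = 0.00115). No interval held the H2-Eb2 promoter window.

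Aifm2, also known as FSP1, encodes an oxidoreductase that protects cells from ferroptosis, a death caused by lipid peroxidation. The interval at the start of its gene record (chr10:61714789-61716247) held 16.1, 14.4 and 13.6 CPM in Nr6a1OE, against 26.7, 19.5 and 25.4 CPM in mScarlet. Here too every Nr6a1OE library was below every mScarlet library. The edgeR estimate was -0.71 ± 0.10 (SE) on the log2 scale (adjusted p = 5.9e-09), and DESeq2 called it (adjusted p = 0.00269). Its RefSeq promoter window lies elsewhere, and no interval held that window.

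R3hcc1l and Loxl4 end close together, and Loxl4 encodes a lysyl oxidase that cross-links extracellular matrix. The interval between their finishes (chr19:42591282-42592212) held 12.6, 11.02 and 11.4 CPM in Nr6a1OE, against 16.7, 15.7 and 16.9 CPM in mScarlet, with no overlap. In log2 units the change was -0.50 ± 0.12 (SE; edgeR adjusted p = 0.00458).

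Finish-side intervals opened as well. Bmf encodes a BH3-only protein that promotes apoptosis. The interval near its finish (chr2:118529214-118530286), with its midpoint 993 bp away and so just inside the limit, held 22.7, 20.3 and 24.6 CPM in Nr6a1OE, against 14.1, 15.6 and 16.5 CPM in mScarlet. The groups did not overlap. On the log2 scale it changed by 0.55 ± 0.10 (SE; edgeR adjusted p = 3.9e-05).

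Tnfrsf25, a death receptor of the TNF family, and Espn, an actin-bundling protein of sensory hair cells, share an interval at their finishes (chr4:152119204-152121237). It held 25.4, 27.7 and 25.4 CPM in Nr6a1OE, against 20.8, 18.8 and 18.9 CPM in mScarlet, with no overlap. This is 0.42 ± 0.09 (SE) in log2 units (edgeR adjusted p = 0.00141). The 3 other called intervals that moved by more than 1 on the log2 scale were very weak. At the finishes of Cherp and 1700030K09Rik the mean was 1.01 ± 0.391 CPM in Nr6a1OE and 2.68 ± 0.518 CPM in mScarlet (SD, n = 3 each). Another lay at the start of Tstd1 and at the end of Usf1, an E-box factor gene, away from its promoter. Its mean was 1.22 ± 0.494 CPM in Nr6a1OE and 2.77 ± 0.666 CPM in mScarlet. At the finish of Anp32b, a histone chaperone, the mean was 2.92 ± 0.779 CPM in Nr6a1OE and 1.296 ± 0.248 CPM in mScarlet. Their edgeR adjusted p were 0.0123, 0.0349 and 0.0364, and each was lost without certain libraries, mScarlet 3 at Tstd1 and Nr6a1OE 3 at all 3 among them (adjusted p of up to 0.151, 0.309 and 0.291). The interval with the Usf1 promoter window, 7.9 kb away, was not called. It held a mean of 51.9 CPM in Nr6a1OE and 48.9 CPM in mScarlet (log2 fold change 0.09, edgeR adjusted p = 0.588).

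The promoters of genes called at their finish did not pass. An interval was found at 9 such promoters, and their log2 fold changes ran from -0.23 at Loxl4 to 0.09 at Cherp. By edgeR 0 were called, with 0 higher and 1 lower, that of 1700030K09Rik, with an unadjusted p below 0.05, and DESeq2 called 2 gene ends in all, neither a promoter window. The Alg8 promoter held 28.8, 31.9 and 28.5 CPM in Nr6a1OE and 29.9, 27.2 and 30.6 CPM in mScarlet, or 0.02 ± 0.08 (SE) in log2 units. The Bmf promoter held 64.9, 71.8 and 60.8 CPM in Nr6a1OE and 63.7, 61.6 and 64.6 CPM in mScarlet, or 0.05 ± 0.06 (SE) in log2 units. At both the groups overlapped, although the finish of the same gene did not.

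**Figure D3:**
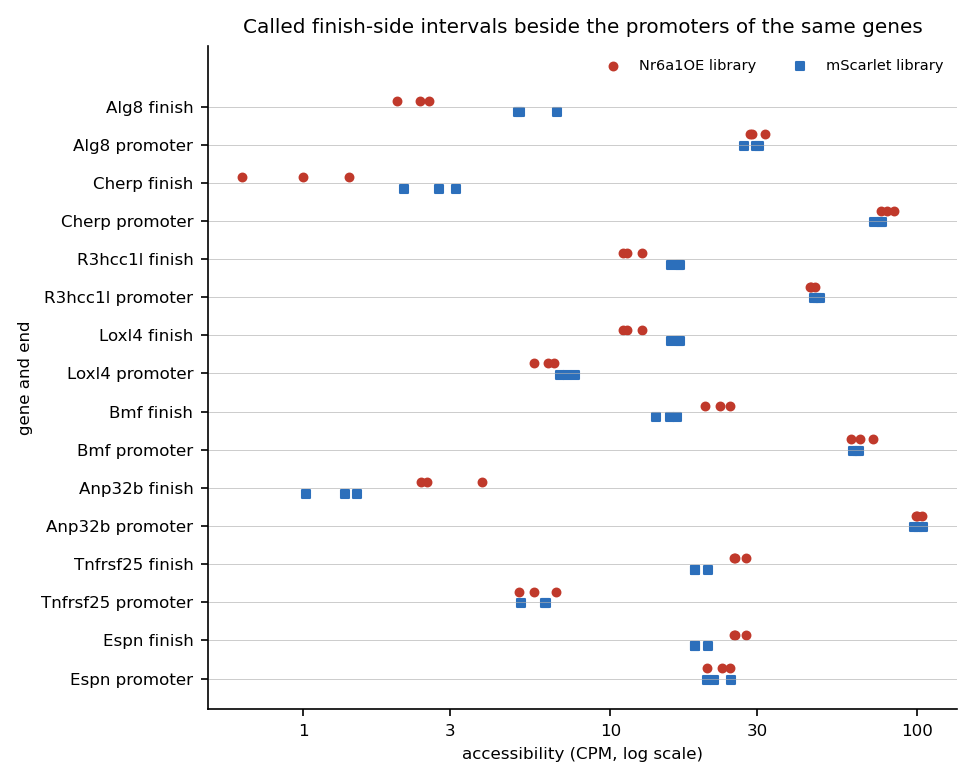
Accessibility of each library in CPM on a log axis at the called finish-side interval of 8 genes and at the promoter of the same gene, with Nr6a1OE libraries as red circles above mScarlet libraries as blue squares. 1700030K09Rik, which shares the finish interval of Cherp, is not shown. Its promoter had a log2 fold change of -0.13 (edgeR unadjusted p = 0.0309). The finish of Alg8 separates into 2.02 to 2.56 CPM in Nr6a1OE and 5.00 to 6.70 CPM in mScarlet, while its promoter spans 28.5 to 31.9 CPM in Nr6a1OE and 27.2 to 30.6 CPM in mScarlet; R3hcc1l and Loxl4 share a finish interval, as do Tnfrsf25 and Espn.

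The promoters that closed belonged to genes of varied function. Prmt6 encodes an arginine methyltransferase that modifies histone H3. Its promoter interval (chr3:110249875-110251315), around the first sequence above, held 36.1, 40.4 and 38.5 CPM in Nr6a1OE, against 48.3, 47.1 and 44.3 CPM in mScarlet, with no overlap. The edgeR estimate was -0.28 ± 0.07 (SE) on the log2 scale (adjusted p = 0.00705), and the call was lost without Nr6a1OE 1 or mScarlet 1 (adjusted p = 0.104 and 0.0892).

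Sp1 encodes a zinc finger factor that binds GC boxes of many promoters. Its promoter interval (chr15:102405240-102406795) was among the strongest called and held 156, 146 and 149 CPM in Nr6a1OE, against 168, 155 and 170 CPM in mScarlet. Nr6a1OE 1 lay above mScarlet 2, so the groups overlapped. In log2 units the change was -0.13 ± 0.04 (SE; edgeR adjusted p = 0.0307), and it was lost without any of Nr6a1OE 2, Nr6a1OE 3, mScarlet 1 or mScarlet 3 (adjusted p of up to 0.269).

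Other closed gene ends named by size were those of BC024063 (-0.31), Prpf18 (-0.31), Oacyl (-0.30), C1qtnf6 (-0.27) and Spata2l (-0.27), as log2 fold changes. Prpf18 is a splicing factor, and its gene-end interval held 19.2, 22.6 and 20.7 CPM in Nr6a1OE, against 27.4, 24.3 and 25.9 CPM in mScarlet. Spata2l held 45.5, 50.4 and 49.3 CPM in Nr6a1OE, against 58.2, 58.4 and 58.6 CPM in mScarlet. At BC024063, Nr6a1OE held 21.7, 23.6 and 26.0 CPM and mScarlet 31.6, 25.9 and 31.1 CPM, the only overlap of these 5. Oacyl held 29.3, 29.4 and 26.9 CPM in Nr6a1OE, against 36.5, 34.97 and 33.97 CPM in mScarlet. C1qtnf6, of the C1q and TNF-related family, held 29.1, 29.1 and 27 CPM in Nr6a1OE, against 34.2, 32.1 and 36.4 CPM in mScarlet. That interval held no promoter window. The interval with the C1qtnf6 window, 2.4 kb away, was higher in Nr6a1OE but was not called. It held a mean of 7.59 CPM in Nr6a1OE and 6.12 CPM in mScarlet (log2 fold change 0.31, edgeR adjusted p = 0.437). For these 5 gene ends the edgeR adjusted p ran from 0.00217 at Spata2l to 0.0438 at Prpf18, and each was lost without at least 1 library, which was Nr6a1OE 1 for Spata2l (adjusted p = 0.0696).

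Apart from Sp1, the closed gene ends below that size fell by 0.15 to 0.26 on the log2 scale. They included the metabolic and transport genes Oxct1 (ketone body use), Abhd5 (co-activator of triglyceride lipolysis), Slc41a2 (magnesium transporter) and Higd1a (mitochondrial protein induced by hypoxia). Others were at Cpm (carboxypeptidase M), Rhbdd1 (rhomboid protease), Mtus2 (microtubule-associated protein), Zfp78 (zinc finger protein) and Ankrd9. Shared starts closed at Pdcd10, a cerebral cavernous malformation gene, with Serpini1, which encodes neuroserpin, and at Hdgfl2, a chromatin reader, with Ubxn6, a cofactor of the ATPase p97. The interval at Zswim9 also held the promoter window of Lig1, which encodes DNA ligase I, and that at Atxn7l2 lay by Sypl2. The interval at Akt1s1, which encodes the mTORC1 inhibitor PRAS40, with Tbc1d17, a Rab GTPase-activating protein, held no window and fell as well. For these 14 the edgeR adjusted p lay between 0.00717 at Zswim9 and 0.0489 at Abhd5, and each was lost without at least 3 of the libraries, counted 1 at a time.

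Opened gene ends included genes of developmental patterning. Pax3 and Pax7 encode paired-box factors of dorsal neural tube progenitors and of muscle and neural crest. At the end of Pax3 (chr1:78196398-78198584) accessibility was 55.4, 56.9 and 59.3 CPM in Nr6a1OE, against 44.5, 49.0 and 45.8 CPM in mScarlet, with no overlap. On the log2 scale it changed by 0.31 ± 0.06 (SE; edgeR adjusted p = 3.1e-04). Pax3 held its call without each library in turn.

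At the Pax7 promoter (chr4:139831295-139834312) it was 56.1, 61.9 and 63.0 CPM in Nr6a1OE, against 47.9, 54.9 and 48.7 CPM in mScarlet, again with no overlap. This is 0.26 ± 0.06 (SE) in log2 units (edgeR adjusted p = 0.00261), lost without Nr6a1OE 3 or mScarlet 1 (adjusted p = 0.0698 and 0.0711). A second Pax7 interval, 25.9 kb from the nearer gene end, opened by 0.27 on the log2 scale (edgeR adjusted p = 0.0433), with 34.0, 32.9 and 33.3 CPM in Nr6a1OE and 27.8, 24.5 and 30.1 CPM in mScarlet.

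Frzb encodes a secreted antagonist of Wnt ligands. Its promoter interval (chr2:80446166-80448587) held 64.3, 61.6 and 70.4 CPM in Nr6a1OE, against 52.2, 55.8 and 57.0 CPM in mScarlet, with no overlap. The edgeR estimate was 0.25 ± 0.06 (SE) on the log2 scale (adjusted p = 0.00217), lost without Nr6a1OE 3 or mScarlet 1 (adjusted p = 0.141 and 0.0708). Wfikkn1 encodes a secreted inhibitor of the growth factors GDF8 and GDF11. Its interval, shared with the end of the small GTPase gene Rab40c, held 34.8, 33.9 and 36.7 CPM in Nr6a1OE, against 24.9, 28.0 and 28.7 CPM in mScarlet. The groups did not overlap, and the change was 0.37 ± 0.08 (SE) on the log2 scale (edgeR adjusted p = 9.2e-04), lost without mScarlet 1 (adjusted p = 0.0539).

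Hmga1 encodes an architectural chromatin protein. Its promoter interval (chr17:27555008-27558026) was the strongest opened gene end, with 124, 122 and 134 CPM in Nr6a1OE, against 115, 109 and 118 CPM in mScarlet. The groups did not overlap, but the change was only 0.15 ± 0.04 (SE) on the log2 scale (edgeR adjusted p = 0.0366). It was lost without Nr6a1OE 1, Nr6a1OE 3, mScarlet 1 or mScarlet 2 (adjusted p of up to 0.388). Nxph2, which encodes a ligand of alpha-neurexins, opened from a low level, with 12.2, 10.4 and 11.99 CPM in Nr6a1OE, against 8.21, 6.99 and 8.62 CPM in mScarlet. In log2 units the change was 0.53 ± 0.14 (SE; edgeR adjusted p = 0.017), lost without Nr6a1OE 1, Nr6a1OE 3, mScarlet 1 or mScarlet 2 (adjusted p of up to 0.130).

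The opened gene ends of largest size also included Vwa5a (0.59), LOC115488283 (0.48), Nfe2 (0.45), Rps23rg1 (0.40), Hoxc8 (0.40) and Hs3st1 (0.33). Nfe2, a bZIP factor of erythroid cells and megakaryocytes, held 20.6, 22.0 and 20.9 CPM in Nr6a1OE, against 14.1, 17.6 and 14.99 CPM in mScarlet, with no overlap. Hs3st1, a heparan sulfate sulfotransferase, held 26.7, 27.7 and 26.0 CPM in Nr6a1OE, against 20.9, 21.9 and 21.2 CPM in mScarlet. Vwa5a held 9.66, 7.91 and 7.57 CPM in Nr6a1OE, against 6.30, 6.26 and 4.25 CPM in mScarlet. At both the groups did not overlap. LOC115488283 held 15.1, 15.8 and 13.9 CPM in Nr6a1OE, against 9.17, 14.1 and 9.12 CPM in mScarlet, and there mScarlet 2 lay above Nr6a1OE 3. Rps23rg1, a retrogene copy of a ribosomal protein gene whose reads can be shared with its parent, held 15.5, 15.1 and 15.9 CPM in Nr6a1OE, against 12.2, 11.2 and 11.7 CPM in mScarlet. The edgeR adjusted p lay between 0.00301 at Nfe2 and 0.0488 at Rps23rg1, and each call was lost without at least 1 library, which was mScarlet 1 alone for Nfe2 (adjusted p = 0.0793).

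**Figure D4:**
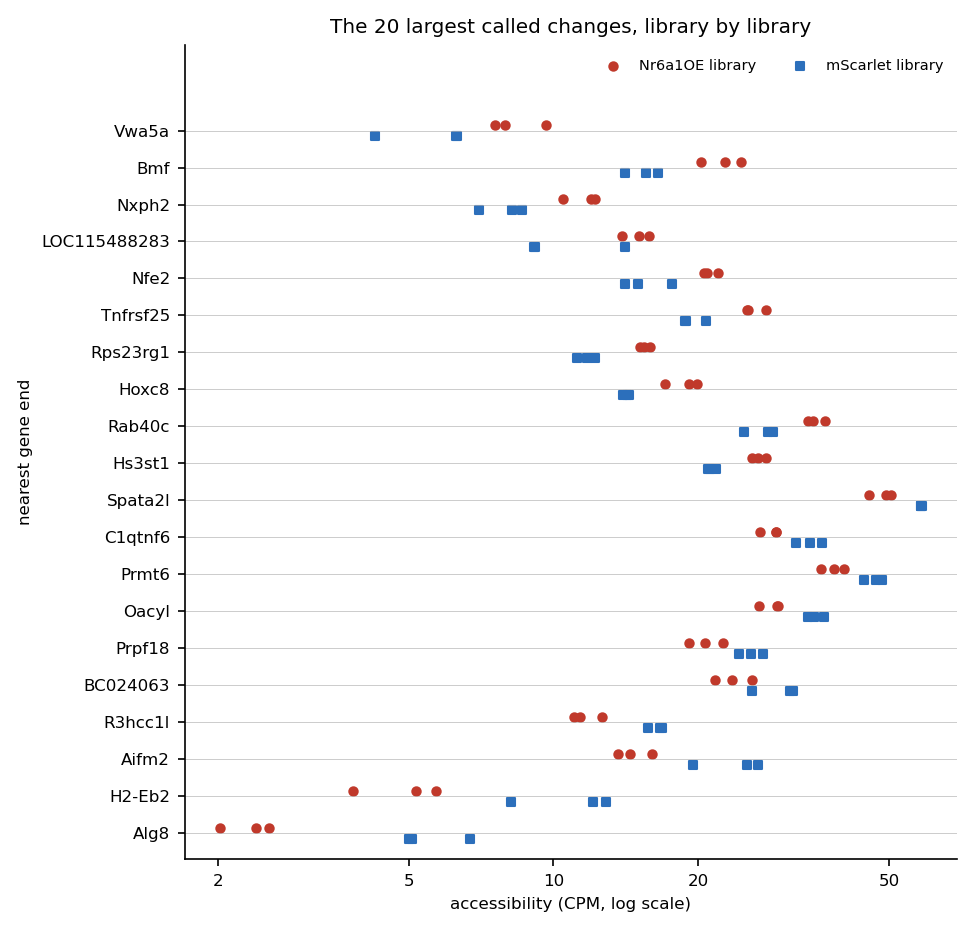
Accessibility of each library in CPM on a log axis for the 10 opened (top) and 10 closed (bottom) gene-end intervals of largest log2 fold change whose higher group averaged at least 3 CPM, with Nr6a1OE libraries as red circles above mScarlet libraries as blue squares. The groups separate at all but BC024063 and LOC115488283.

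The opened gene ends not given by library here or below rose by 0.20 to 0.32 on the log2 scale. They included those at Fgf15 (an FGF ligand), Tll1 (a tolloid-like protease), Epb41l2 (membrane skeleton), Clic1 (a chloride intracellular channel protein), Clcn7 (the lysosomal chloride and proton exchanger), Rpp30 (a subunit of RNase P), and an interval that held the promoter windows of both Ccdc71 and Klhdc8b. The edgeR adjusted p lay between 0.00325 at Rpp30 and 0.0456 at Epb41l2. Each was lost without at least 2 of the libraries, counted 1 at a time.

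Hox genes specify position along the body axis, and the retained chromosomes hold the HoxC and HoxD clusters. Of 14 Hox gene-end intervals, 2 opened and 0 closed, and 5 were higher and 0 lower in Nr6a1OE with an unadjusted p below 0.05 (edgeR). That is 14.3% called and 35.7% with such a p, from few intervals of neighbouring genes, against 1.73% and 12.6% of all intervals tested. Their median log2 fold change was 0.05, against 0.00 over all intervals tested. Hoxc8 held 17.1, 19.2 and 19.9 CPM in Nr6a1OE, against 14.2, 13.99 and 14.4 CPM in mScarlet, or 0.40 ± 0.11 (SE) in log2 units (edgeR adjusted p = 0.0221). Hoxc6, 5.10 kb away, held 38.5, 40.7 and 43.5 CPM in Nr6a1OE, against 36.4, 34.0 and 33.2 CPM in mScarlet, or 0.25 ± 0.07 (SE) in log2 units (edgeR adjusted p = 0.0403). The groups did not overlap at either, and both calls were lost without any of Nr6a1OE 2, Nr6a1OE 3, mScarlet 1, mScarlet 2 or mScarlet 3 (adjusted p of up to 0.168 and 0.295). Hoxc9 (log2 fold change 0.29, edgeR adjusted p = 0.166) and Hoxc5 (0.12, 0.338) did not pass, nor did Hoxc10 (-0.08, 0.774) or Hoxd13 (0.04, 0.885).

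Of 25 gene-end intervals of dorsoventral patterning genes, 2 opened, those of Pax3 and Pax7, and 0 closed (edgeR), with a median log2 fold change of -0.02. The called share was 8.0%, from few intervals, against 0.494% of all gene ends and 1.73% of all intervals. With an unadjusted p below 0.05, 3 were higher and 0 lower, which is 12%, against 12.6% of all intervals. The hedgehog effector gene Gli1 had a log2 fold change of 0.12 (edgeR adjusted p = 0.0839). Of 35 intervals of replication-dependent histone genes, 1 opened and 0 closed, with a median of 0.06 and libraries that did not overlap at 11 higher and 1 lower, which is 34.3%, against 16.6% of all intervals. With an unadjusted p below 0.05 were 11.4%, against 12.6% of all intervals. The called share was 2.86%, from 1 interval, against 0.494% of all gene ends and 1.73% of all intervals. The opened one was the interval of H1f3, a linker histone, with 70.3, 72.6 and 64.3 CPM in Nr6a1OE, against 57.8, 59.7 and 63.7 CPM in mScarlet, or 0.19 in log2 units (edgeR adjusted p = 0.0484), a call that was lost without Nr6a1OE 1, Nr6a1OE 2, mScarlet 1 or mScarlet 2 (adjusted p of up to 0.285). Of 245 Zfp zinc finger intervals, 0 opened and 1, that of Zfp78, closed, with a median of -0.02 and 7 higher and 20 lower with an unadjusted p below 0.05. The called share was 0.408%, against 0.494% of all gene ends and 1.73% of all intervals. The share with such a p was 11.02%, between the 8.54% of all gene ends and the 12.6% of all intervals. Zfp78 held 102, 103 and 103 CPM in Nr6a1OE, against 116, 109 and 118 CPM in mScarlet, with no overlap. The change was -0.16 ± 0.04 (SE) on the log2 scale (edgeR adjusted p = 0.0307), lost without any library other than mScarlet 2 (adjusted p of up to 0.245).

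Nr6a1 and its relatives did not pass. The interval at the start of Nr6a1 held 88.6, 85.0 and 84.8 CPM in Nr6a1OE, against 78.2, 86.5 and 82.8 CPM in mScarlet, and the groups overlapped (log2 fold change 0.06, edgeR adjusted p = 0.651). It lies at the native promoter, so it does not measure the transgene. Of 17 gene-end intervals of orphan nuclear receptors, 0 were called by edgeR, with 1 higher and 1 lower with an unadjusted p below 0.05 and a median log2 fold change of 0.04. The lower one was at Nr2f1, a COUP-TF receptor, with 48.6, 37.4 and 43.9 CPM in Nr6a1OE, against 46.3, 50.9 and 49.8 CPM in mScarlet (log2 fold change -0.18, edgeR adjusted p = 0.167). The higher one was at Rorb (0.13, adjusted p = 0.350). Other receptors with an interval included Nr2e1 (-0.39 at its finish and 0.07 at its promoter), Nr2c1 (-0.10), Nr1d2 (-0.07), Nr4a3 (-0.07), Esrra (-0.06), Nr2f2 (-0.03), Nr4a2 (0.04), Nr2f6 (0.04), Rora (0.06), Nr4a1 (0.08), Esrrg (0.12) and Esrrb (0.28), as log2 fold changes.

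The list of neuromesodermal and trunk to tail genes had the highest median of the 27 lists, only slightly above interferon (0.093) and mesoderm (0.092). Neuromesodermal progenitors give rise to the trunk spinal cord. Over their 11 gene-end intervals it was 0.10, with 4 higher and 0 lower with an unadjusted p below 0.05 and 0 called by edgeR. That is 36.4% with such a p, from few intervals, against 8.54% of all gene ends and 12.6% of all intervals. T, which encodes Brachyury, held 20.9, 15.4 and 19.6 CPM in Nr6a1OE, against 15.1, 16.3 and 12.5 CPM in mScarlet (log2 fold change 0.36, SE 0.11, edgeR adjusted p = 0.0565). Nr6a1OE 2 lay below mScarlet 2 there. The higher-changing of the Fgf8 intervals held 20.7, 21.1 and 20.2 CPM in Nr6a1OE, against 17.0, 16.03 and 16.1 CPM in mScarlet, with no overlap (0.33, SE 0.10, edgeR adjusted p = 0.0644). Lin28a (0.10) and Sall4 (0.10) were the other members with an unadjusted p below 0.05. The remaining members were Cdx1 (0.21), Fgf17 (0.20 and 0.09), the second Fgf8 interval (0.13), Lin28b (0.00), Gdf11 (-0.03) and Hmga2 (-0.06). The median level of the list was 26.8 CPM, in the level group from 19.8 to 40.7 CPM, where the median log2 fold change of gene ends was 0.00.

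In 23 of the 27 lists, 0 gene-end intervals were called by edgeR. For the Wnt pathway (16 intervals) the median log2 fold change was 0.04, with 3 higher and 1 lower with an unadjusted p below 0.05. That is 25.0%, from few intervals, against 8.54% of all gene ends and 12.6% of all intervals. The closest to the threshold was the ligand gene Wnt4 (0.19, edgeR adjusted p = 0.0657). Frzb, the Wnt antagonist gene whose promoter opened, was not in this list. For the retinoid pathway (13 intervals) the median was 0.04, with 2 higher and 1 lower (23.1%). The binding protein gene Crabp1 came closest there (0.26, edgeR adjusted p = 0.105). Pluripotency and germline genes (15 intervals) had a median of 0.05, with 2 higher and 0 lower (13.3%). Those 2 were Lin28a and Sall4, the same intervals counted in the neuromesodermal list. Housekeeping lists lay near 0, with medians of 0.00 for cytosolic ribosomal proteins (59 intervals; 3 higher and 4 lower), 0.00 for mitochondrial ribosomal proteins (47; 0 and 2), -0.01 for oxidative phosphorylation (52; 1 and 2), -0.01 for the proteasome (25; 0 and 3) and 0.02 for the cell cycle (31; 3 and 0).

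Cell identity lists also lay close to 0, apart from mesoderm. Medians were 0.03 for neural progenitor genes (19 intervals; 1 higher and 1 lower with an unadjusted p below 0.05), -0.04 for post-mitotic neurons (21; 0 and 1), 0.01 for glia (11; 1 and 1), -0.05 for neural crest (10; 1 and 0), -0.04 for endothelium and blood (6; 0 and 0) and 0.01 for endoderm (4; 0 and 0). The mesoderm and mesenchyme list (11 intervals), which shares T with the neuromesodermal list, had a median of 0.09, with 3 higher and 0 lower. That is 27.3%, from few intervals, against 8.54% of all gene ends and 12.6% of all intervals. The interferon list (12 intervals) had a median of 0.09, with 1 higher and 1 lower. Medians were 0.01 for the hedgehog pathway (16; 2 and 1), 0.00 for the TGF-beta and BMP pathway (26; 2 and 0), -0.01 for p53 targets (23; 0 and 3), 0.02 for imprinted genes (15; 1 and 0) and 0.03 for extracellular matrix and adhesion (18; 2 and 0).

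**Figure D5:**
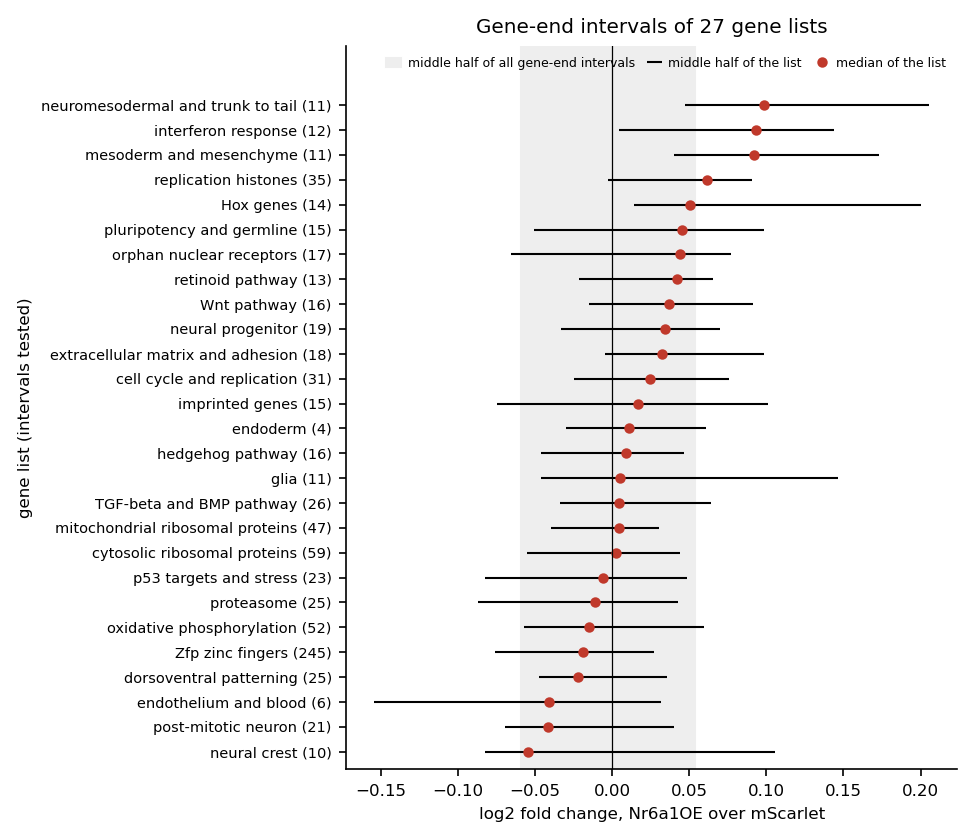
For 27 gene lists, the red point is the median log2 fold change (Nr6a1OE over mScarlet) of the list's gene-end intervals, the line spans their interquartile range, and the number of intervals is in brackets; the grey band is the same range for all gene-end intervals, -0.06 to 0.05. Most medians lie inside the band, from -0.05 for neural crest, while the replication histones lie just above it at 0.06 and the neuromesodermal, interferon and mesoderm lists further above at 0.09 to 0.10.

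The other intervals of the same genes, taken up to 100 kb from the gene end, were called about as often as all intervals. Over called gene ends of both directions, 2.08% of the other intervals were called and 12.5% had an unadjusted p below 0.05, against 1.73% and 12.6% of all intervals tested. Of the 25 opened gene ends, 19 were at genes with other intervals, 55 in all, of which 1 opened, the Pax7 interval above, and 0 closed (edgeR), with 5 higher and 2 lower with an unadjusted p below 0.05. Of the 27 closed gene ends, 18 were at genes with other intervals, 41 in all, of which 0 opened and 1 closed, with 3 higher and 2 lower at that p. That one lay inside Mtus2, 13.0 kb from the nearer gene end, and held 11.4, 14.1 and 12.5 CPM in Nr6a1OE, against 22.6, 22.2 and 25.6 CPM in mScarlet. Its change of -0.89 ± 0.11 (SE) in log2 units (edgeR adjusted p = 2.1e-13) was larger in size than the -0.26 of the Mtus2 promoter, which held 33.8, 41.4 and 40.0 CPM in Nr6a1OE and 45.7, 44.9 and 47.1 CPM in mScarlet.

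The promoter sequences of called gene ends were compared with those of uncalled ones as a description. The extended Nr6a1 half-site TCAAGGTCA was in 0 of 15 opened and 0 of 20 closed windows, in 0.196% of 8164 uncalled gene-end windows, and in 0.334% of all 21263 promoters. The half-site AGGTCA was in 2 opened windows (13.3%), those of Frzb and Clic1, and 4 closed ones (20.0%), against 10.0% of uncalled windows and 14.7% of all promoters. Gene ends whose windows held TCAAGGTCA had a median log2 fold change of -0.02 over 16 windows, and those without it one of -0.01.

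CCAAT was in 2 opened windows (13.3%) and 10 closed ones (50.0%), Sp1 among them, against 38.8% of uncalled windows and 38.2% of all promoters. Some of these windows overlap or share an interval, so they are not independent. The octamer ATGCAAAT was in 2 opened windows, both of Hmga1, and in 1.37% of uncalled windows and 1.66% of all promoters. TTGGCA was in 2 opened (13.3%) and 4 closed windows (20.0%), against 9.76% of uncalled and 13.1% of all. CCGGAAGT was in 0 opened and 2 closed windows, against 9.08% of uncalled and 5.15% of all. TGACGTCA was in 0 opened and 0 closed windows, against 3.53% of uncalled and 2.23% of all. CACGTG was in 1 opened and 0 closed windows, against 10.7% of uncalled and 7.84% of all.

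The promoter windows of opened gene ends were poorer in CpG, a difference that was not tested. They had a median CpG ratio of 0.665 (0.126 to 0.975), against 0.813 (0.489 to 1.16) in closed and 0.803 in uncalled windows, with GC contents of 62.0%, 62.8% and 63.3%. Promoter intervals were also divided into 4 groups of equal size by this ratio. From the lowest to the highest, 6, 5, 1 and 1 promoters opened and 3, 4, 5 and 4 closed, and the median log2 fold change was 0.01, -0.01, -0.01 and -0.02. The median level was 29.4, 47.5, 53.6 and 57.7 CPM in the same groups, so CpG content and level moved together, and their separate parts were not tested.

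At the margin of the distance limit the called shares were 0.733% just inside and 0.881% just outside, from a few intervals each, against 0.494% of all gene ends. Of 273 intervals with midpoints 900 to 1000 bp from a gene end, 1 opened and 1 closed, those of Bmf and Oacyl. Of 227 intervals 1000 to 1100 bp away, 1 opened and 1 closed. Gene-end calls were spread over 16 of the 17 chromosomes, with 0 on chromosome 16 by edgeR, where 16 intervals were higher and 15 lower with an unadjusted p below 0.05.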

How the data were processed

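The authors deposited raw fragment counts for the consensus intervals of 6 libraries. Per the file headers, they were counted with featureCounts 2.0.1 on read pairs, with fragments counted in every interval they overlapped by at least 0.2 of their length, so neighbouring intervals share fragments. The submitters' processing notes name mm10. No aligner, peak caller, duplicate filter, Tn5 shift or rule for merging intervals was given in the sources used here.

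Intervals were filtered with filterByExpr (586 removed), scaled by TMM and compared with edgeR 4.0.16 in R 4.3.3 (quasi-likelihood test, no covariate), with Benjamini-Hochberg adjustment over all 51637 intervals. The SE of a log2 fold change came from its F statistic. Genes, strands and promoter windows came from RefSeq tables of GRCm38.p6, with 21887 protein-coding genes, of which 17492 had a promoter entry. A gene without an entry has no strand here, and its ends are called ends. The 8199 windows inside gene-end intervals belonged to 7328 genes.

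Called gene ends are named, apart from an item that is not reported here. Values by library are given for the 10 opened and 10 closed of largest log2 fold change with a mean of at least 3 CPM in the higher group, for calls shared by DESeq2 1.42.0, for calls within the gene lists, and for others chosen after their values were seen. The members and the 27 lists (1208 genes) were chosen with earlier results of these data known. The main fit did not pair libraries by replicate number. Same-numbered libraries deviated from their group means with correlations of 0.02, -0.01 and -0.01. With replicates that differ by little more than counting noise, such values cannot tell whether the libraries were paired. Alternatives were another test, normalization, filter, dispersion and distance limit, a replicate block and leaving out each library.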

Additional observations from a re-analysis of the deposited data

How the results depend on the processing

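The direction of every called gene end held under every alternative run. Over those gene ends and alternatives, 462 values kept their side of the threshold, 311 no longer passed and 0 reversed. DESeq2 called 0 opened and 2 closed gene ends, both among the 52. With a coefficient of variation of 10% between cultures assumed in place of the estimated 1.47%, edgeR called 0 opened and 4 closed. Leaving out 1 library at a time gave 6 to 19 opened and 7 to 35 closed, with medians of -0.01 to 0.00. A distance limit of 3 kb gave 47 opened and 46 closed, since it takes in more intervals. With the replicate number as a block, 23 opened and 24 closed, all among the 52. No label states that the numbers pair libraries. Summing Nr6a1OE 1 and 3 to 1 sample gave 21 and 22, removing chromosome medians 23 and 29, and a mean of at least 10 CPM 29 and 26. The medians stayed within the spread between replicates under the alternatives run. Depth limits what weak gene ends can show, and CPM under 3 rest on few fragments.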
